A study of Mus musculus with 16 samples.

Results

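The excitation-contraction coupling channel complex was followed in quadriceps femoris muscle of aged mice through 10 listed genes, Cacng1, Stac3, Cacna1s, Cacnb1, Cacna2d1, Ryr1, Jph1, Jph2, Trdn and Fkbp1a, taking every array probe that the platform annotation assigns to 1 of them. This gave 14 probes for 9 of the 10 genes, out of 25697 probes and 16590 named genes on the array. No probe carried the symbol Cacna1s in that annotation, so the pore subunit of the voltage sensor was not analysed here. The muscle came from 16 male C57BL/6 mice, aged 22 months at the start of feeding and 24 months when tissue was taken. For those 2 months, 5 mice ate control chow, 6 ate chow with 0.27% (w/w) ursolic acid, a triterpene acid, and 5 ate chow with 0.05% (w/w) tomatidine, a steroidal alkaloid. The labels name no genetic alteration, and no young mice were analysed here. Each mouse contributed 1 single-color Illumina Mouse Ref-8 v2.0 array.

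Skeletal muscle contracts when depolarization of the T-tubule moves the dihydropyridine receptor, a voltage-gated calcium channel that acts as voltage sensor, and this movement opens the ryanodine receptor in the facing sarcoplasmic reticulum. The receptor is built from a pore subunit with beta, alpha2-delta and gamma subunits, and the adaptor STAC3 is needed for its coupling to the ryanodine receptor. Junctophilins hold the 2 membranes together at the triad, triadin anchors the calcium store protein calsequestrin at the release channel, and the small immunophilin FKBP12 binds the channel itself.

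All values below are log2 signals as the authors deposited them, so a difference of 1 is a doubling. Signals of different probes depend on probe sequence and are not set against each other as amounts of mRNA. The 16 array medians lay between 8.02 and 8.03 and the lowest signals between 7.87 and 7.90, so a probe with a mean under 8.5 is called dim, as 76.8% of probes were. Of the 14 member probes 11 were above 8.5, and they covered 8 genes. A probe is said to have risen or fallen where limma, fitted over all 16 arrays and all probes, gave an unadjusted p of 0.025 or less, and the Benjamini-Hochberg adjusted p over all 25697 probes is printed beside it. Both compounds were compared with the same 5 control mice, so the 2 comparisons are not independent. Muscle fiber identity genes, 8 of 8 measured, had mean signals from 14.35 to 14.54 in the 16 mice, whereas satellite cell markers had means from 7.94 to 7.99. Tomatidine mouse 4, and less so tomatidine mouse 3, stood apart on the first principal component of all probes, with scores of 14.6 and 7.11. Control mouse 5 scored 5.84, near tomatidine mouse 3, and the other control mice ran from -6.35 to -0.18. In whole muscle, fewer cells of a type and less RNA per cell cannot be told apart.

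With ursolic acid 3 of the 14 member probes fell and 0 rose, where 2.72% of all probes fell and 2.58% rose. The 3 were those of Cacng1, Cacnb1 and 1 of 4 Ryr1 probes. Without control mouse 5 the ursolic acid count was 6, with another Ryr1 probe falling and Jph1 and Fkbp1a rising. Calls over all probes also rose in that fit, to 6.09% from 5.3% with all mice. At an adjusted p of 0.1 they rose to 50 from 2. With tomatidine 3 of 14 fell and 0 rose, where 3.12% of all probes fell and 2.25% rose, and the 3 were those of Cacng1, Stac3 and the same Ryr1 probe. Brighter probes passed more often. Among the 5949 probes with a mean of 8.5 or more, 6.15% fell and 6.05% rose with ursolic acid, 7.67% fell and 5.38% rose with tomatidine, and all the member probes that fell belong to that brighter class. No member probe reached an adjusted p of 0.1 in either comparison, where 2 of all probes (0.00778%) did with ursolic acid and 25 (0.0973%) with tomatidine. By the brightest probe of each of the 9 genes, the median change was -0.09 with ursolic acid and -0.05 with tomatidine, against 0.00 over all probes in both. Most of all probes were dim, whereas 8 of these 9 were not, and no median over brighter probes was computed. Between the 2 compounds 0 of 14 member probes passed at an unadjusted p of 0.025, 0 had an unadjusted p under 0.05 and 0 an adjusted p of 0.1 in limma, where 2.94% of all probes passed the first of these thresholds and 0.0117% the last. The doses differ, so that comparison is not one at matched dose.

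**Figure D1:**
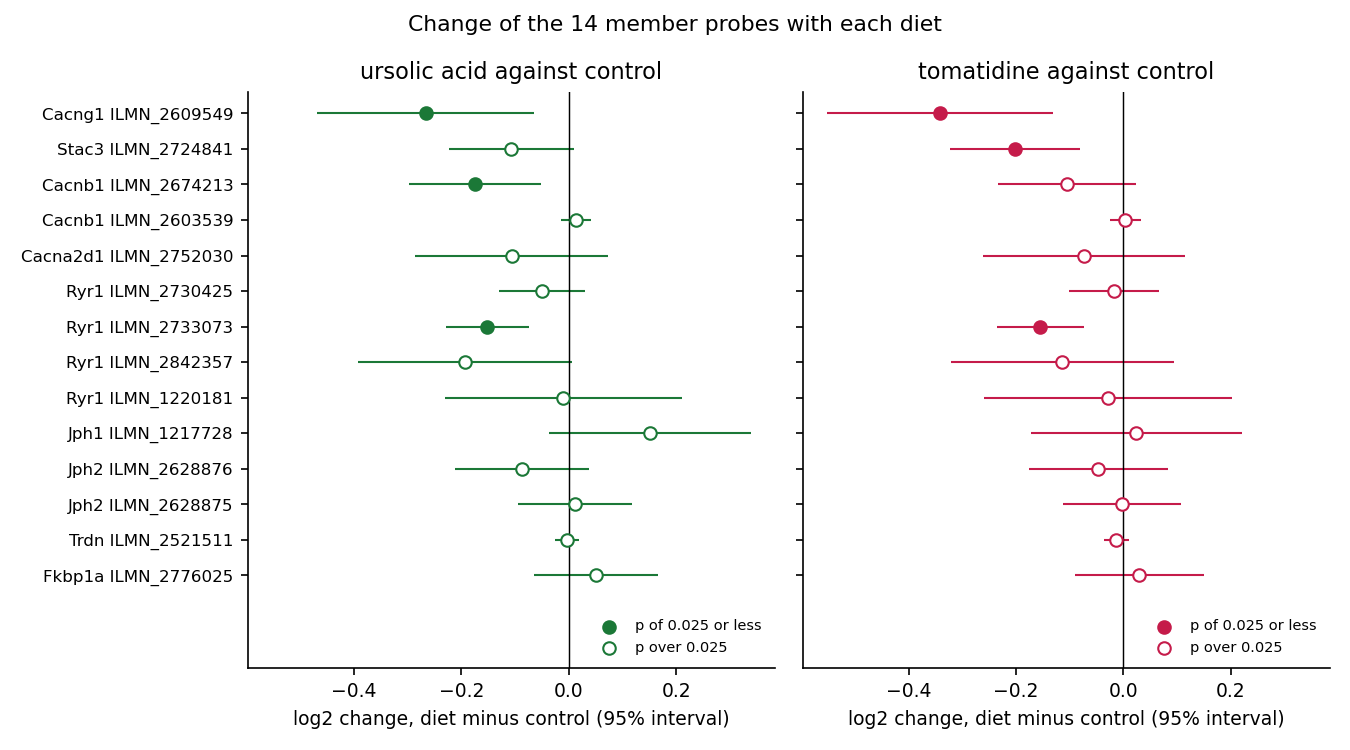
Change of each member probe in log2 signal, diet minus control, for ursolic acid (left) and tomatidine (right). Circles are limma estimates over 16 arrays with 95% intervals, filled where the unadjusted p was 0.025 or less; 3 probes are filled in each panel, all left of 0.

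Among the subunits of the voltage sensor, Cacng1 moved most with both diets. Cacng1 (chr11:107703218-107716476 on GRCm38.p6) encodes the gamma subunit, which in skeletal muscle restrains the calcium current through the channel. Its probe ILMN_2609549 had signals of 11.47, 11.53, 11.29, 11.67 and 11.40 in control mice 1 to 5. The 5 tomatidine mice gave 11.21, 11.21, 10.81, 11.18 and 11.25, and the 6 ursolic acid mice ran from 10.97 through a median of 11.24 to 11.40. All 5 tomatidine mice were thus below the lowest control mouse, a separation that 1.38% of all probes showed in that comparison, and 4 of the 6 ursolic acid mice were. Group means were 11.47 ± 0.142 (SD, n = 5) on control diet, 11.21 ± 0.171 (SD, n = 6) on ursolic acid and 11.13 ± 0.184 (SD, n = 5) on tomatidine. Cacng1 fell by 0.34 on the log2 scale with tomatidine, with a standard error of 0.0988, which is 1.27-fold lower (limma, unadjusted p = 0.00349, adjusted p = 0.286). With ursolic acid it fell by 0.27, with a standard error of 0.0946, or 1.20-fold (limma, unadjusted p = 0.0131, adjusted p = 0.4). The ursolic acid call was lost when control mouse 2, control mouse 4, ursolic acid mouse 5 or ursolic acid mouse 6 was left out, with changes from -0.31 to -0.22 over all single omissions. Ursolic acid minus tomatidine was 0.08, with a 95% interval from -0.13 to 0.28.

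Stac3 (chr10:127501617-127508823), the adaptor between voltage sensor and ryanodine receptor, fell with tomatidine. Its probe ILMN_2724841 read 10.72, 10.59, 10.62, 10.77 and 10.54 in the control mice, and 10.55, 10.51, 10.45, 10.34 and 10.38 in the tomatidine mice. The highest tomatidine mouse just exceeded the lowest control mouse, and the other 4 lay below all controls. The change was -0.20 with a standard error of 0.0569 (limma, unadjusted p = 0.00298, adjusted p = 0.271). In the ursolic acid mice Stac3 ran from 10.44 through 10.51 to 10.67, and 4 of 6 were below all controls while the other 2 lay among them. That change, -0.11 with a standard error of 0.0545, did not pass (limma, unadjusted p = 0.0694, adjusted p = 0.602). The difference between the compounds was 0.10, with an interval from -0.02 to 0.21 that includes 0, so Stac3 was not shown to respond to one compound and not the other.

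Cacnb1 (chr11:98001508-98023034) encodes the beta subunit, which carries the pore subunit to the membrane and is needed for skeletal coupling. It was the member that fell with ursolic acid but did not pass with tomatidine. The probe ILMN_2674213 read 9.37, 9.46, 9.41, 9.48 and 9.36 in control mice, and in ursolic acid mice it ran from 9.16 through 9.21 to 9.37. All ursolic acid mice were below the control mean and 5 of 6 were below every control. Cacnb1 fell by 0.17 on the log2 scale, with a standard error of 0.0575 (limma, unadjusted p = 0.00841, adjusted p = 0.36). The tomatidine mice were spread widely, at 9.50, 9.41, 9.30, 9.16 and 9.18, so that 1 was above all controls and 3 were below all of them. Their SD was 0.148 against 0.054 in the controls. The tomatidine change of -0.11, with a standard error of 0.0601, did not pass (limma, unadjusted p = 0.0998, adjusted p = 0.639), and it passed only without tomatidine mouse 1, at -0.15 (unadjusted p = 0.0119). Ursolic acid minus tomatidine was -0.07 (95% interval -0.19 to 0.05). The second Cacnb1 probe, ILMN_2603539, was dim, between 8.03 and 8.09 in all mice, and changed by 0.01 and 0.00.

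**Figure D2:**
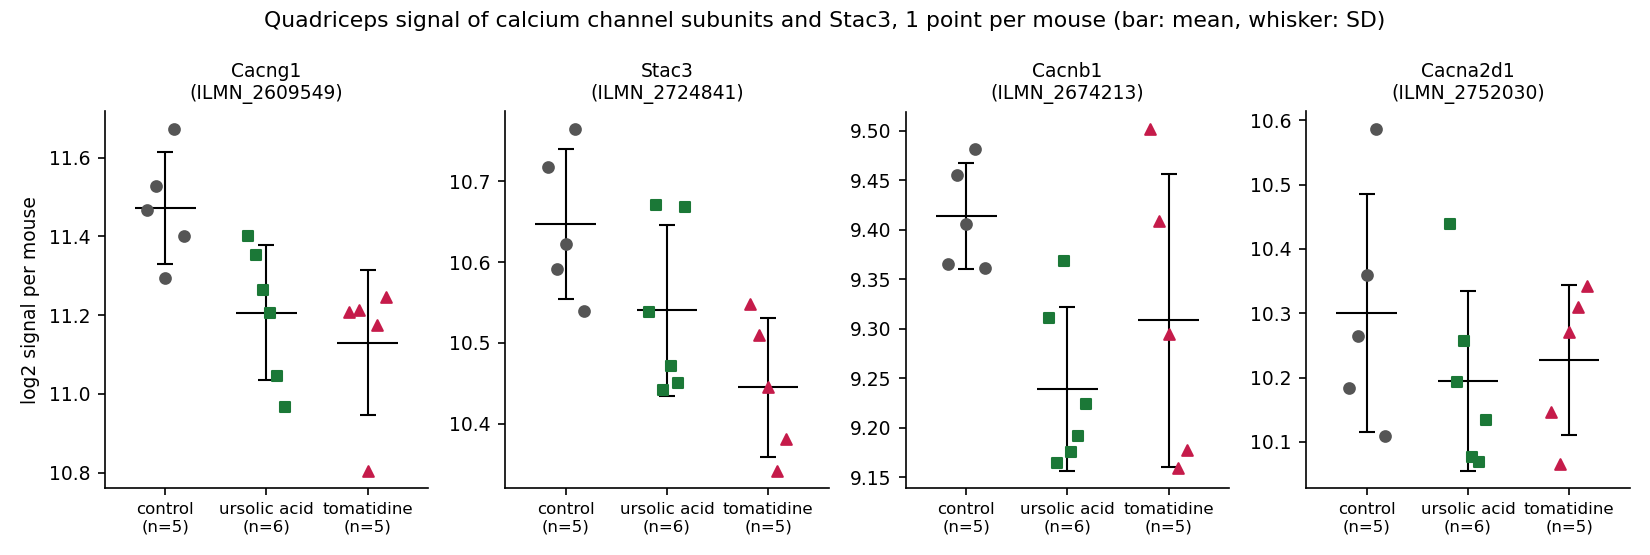
Log2 signal per mouse (1 point each) of Cacng1, Stac3, Cacnb1 and Cacna2d1 by diet; bars are means and whiskers SD, and the vertical axes differ between panels and do not start at 0. For Cacng1 all tomatidine mice lie below all control mice, and for Cacnb1 tomatidine mice lie both above and below the controls.

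The sequence around 2 Cacnb1 start sites is shown because the gene fell. Both starts are those of the RefSeq promoter windows (GRCm38.p6) on the minus strand. Both windows lie inside the gene span printed above, so the sequence before its outer end is not shown. Each window holds 250 bases before and 50 after the start, 5′ to 3′, with capitals marking motif matches on either strand among the E-box (CANNTG, bound by myogenic factors such as MyoD), the GC box (GGGCGG, bound by Sp1), the MEF2 box and the CArG box.
Cacnb1 start A, chr11:98022578-98022877: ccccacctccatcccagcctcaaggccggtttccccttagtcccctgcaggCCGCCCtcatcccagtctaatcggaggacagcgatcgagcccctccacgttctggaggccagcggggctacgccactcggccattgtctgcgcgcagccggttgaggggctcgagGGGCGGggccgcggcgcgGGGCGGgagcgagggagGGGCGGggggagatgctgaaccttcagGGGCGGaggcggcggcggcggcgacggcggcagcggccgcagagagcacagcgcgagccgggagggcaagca
Cacnb1 start B, chr11:98018323-98018622: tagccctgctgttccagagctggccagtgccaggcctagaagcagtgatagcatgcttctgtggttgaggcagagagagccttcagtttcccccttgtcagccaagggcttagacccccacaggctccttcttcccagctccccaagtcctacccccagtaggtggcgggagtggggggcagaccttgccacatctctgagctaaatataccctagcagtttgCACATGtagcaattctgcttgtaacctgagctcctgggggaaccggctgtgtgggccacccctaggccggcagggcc
Start A held 5 GC boxes and 0 E-boxes, and start B held 1 E-box, with its first base at position -27, and 0 GC boxes. Neither window had a match to the MEF2 or CArG box. In all 32851 RefSeq promoter windows of this length, 72.3% held an E-box, 35.7% a GC box, 3.19% a MEF2 box and 1.63% a CArG box. A match describes the letters only and is not evidence of binding. The array probe does not tell which start was used.

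Cacna2d1 (chr5:15934264-16374511), the alpha2-delta subunit that aids trafficking of the channel, did not pass with either compound. Its signals were 10.18, 10.26, 10.36, 10.59 and 10.11 in controls and 10.15, 10.07, 10.27, 10.31 and 10.34 in tomatidine mice. In ursolic acid mice they ran from 10.07 through 10.16 to 10.44. The groups overlapped, and the changes were -0.11 (95% interval -0.29 to 0.07) with ursolic acid and -0.07 (-0.26 to 0.11) with tomatidine.

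Ryr1 (chr7:29003340-29125179), the release channel of the sarcoplasmic reticulum, was read by 4 probes, of which 1 passed. ILMN_2733073 read 13.89, 13.96, 13.99, 14.06 and 13.94 in control mice and 13.84, 13.84, 13.92, 13.74 and 13.74 in tomatidine mice. In ursolic acid mice it ran from 13.73 through 13.83 to 13.88. Every ursolic acid mouse was below every control mouse, a separation that 1.09% of all probes showed in that comparison, and 4 of 5 tomatidine mice were below all controls. The probe fell by 0.15 with each compound, with standard errors of 0.036 and 0.0377 (limma, unadjusted p = 0.000777 and 0.000952, adjusted p = 0.23 and 0.224). Ursolic acid minus tomatidine was 0.00, with an interval from -0.07 to 0.08.

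The other 3 Ryr1 probes did not pass. ILMN_2730425, the brightest, read 14.28, 14.18, 14.39, 14.32 and 14.19 in controls, and its changes were -0.05 (95% interval -0.13 to 0.03) and -0.02 (-0.10 to 0.07). With ursolic acid the interval of ILMN_2733073, from -0.23 to -0.07, overlaps that of ILMN_2730425. The 2 probes were not tested against each other. ILMN_2842357 gave the largest Ryr1 change with ursolic acid, -0.19 with a standard error of 0.0934, but controls ranged from 12.09 to 12.65 and it missed the threshold (limma, unadjusted p = 0.0576, adjusted p = 0.577). Without control mouse 5, the lowest control, it was -0.27 (unadjusted p = 0.0073, adjusted p = 0.302, with a range from 0.177 to 0.781 over all alternatives). With tomatidine ILMN_2842357 changed by -0.11. ILMN_1220181 changed by -0.01 and -0.03. Which exons or transcripts the 4 probes read is not given in the sources used here. Over the 16 mice, after subtraction of diet means, ILMN_2730425 and ILMN_2733073 correlated with r = 0.52 and rho = 0.66 (within-diet permutation, adjusted p = 0.204 and 0.0567 over 8 pairs of probes of 1 gene), and r was 0.60 without control mouse 3 and ursolic acid mouse 3. The other 5 pairs of Ryr1 probes had r from 0.03 to 0.38, with adjusted p from 0.469 to 0.9.

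**Figure D3:**
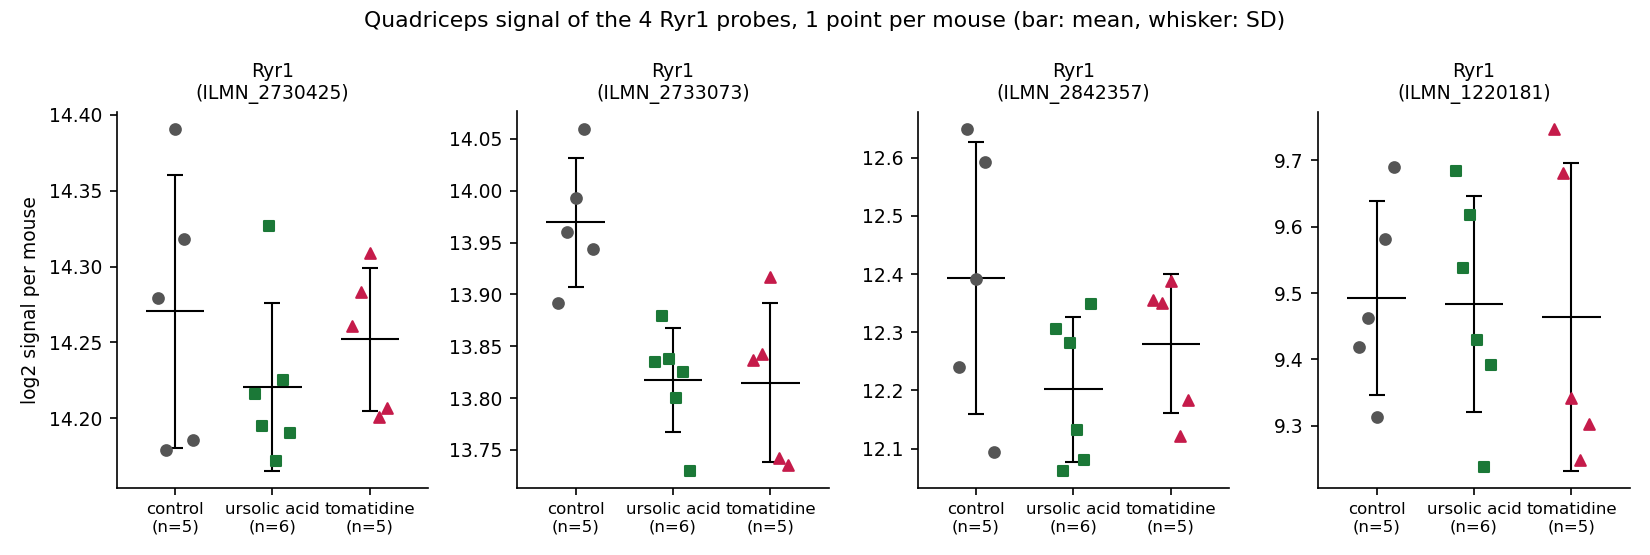
Log2 signal per mouse of the 4 Ryr1 probes by diet; bars are means and whiskers SD, and the vertical axes differ and do not start at 0. Control and ursolic acid mice separate on ILMN_2733073 and overlap on the other 3 probes.

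The Ryr1 start is shown beside those of Cacnb1 because 1 of its probes fell with both diets; it was added after the values were known, since its brightest probe had not passed.
Ryr1, minus strand, chr7:29125102-29125401: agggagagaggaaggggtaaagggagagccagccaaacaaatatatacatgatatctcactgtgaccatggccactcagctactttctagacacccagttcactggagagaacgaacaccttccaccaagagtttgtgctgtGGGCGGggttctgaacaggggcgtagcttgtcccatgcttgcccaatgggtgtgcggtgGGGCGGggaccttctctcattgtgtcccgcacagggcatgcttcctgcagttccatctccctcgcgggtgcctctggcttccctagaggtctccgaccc
The window held 2 GC boxes, first bases at -108 and -49, and 0 E-boxes, and no match to the MEF2 or CArG box. GC boxes without an E-box are not particular to the genes that fell. The window of Cacna2d1, which passed with neither compound, held 7 GC boxes and 0 E-boxes. That window also lies inside the span printed for its gene. The promoter windows used here included none for Cacng1 or Stac3.

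The junctophilins, which tie T-tubule to sarcoplasmic reticulum, did not pass. Jph1 (chr1:16942104-17097922), the main skeletal form, read 10.22, 9.94, 10.21, 10.14 and 10.51 in controls and ran from 10.21 through 10.35 to 10.56 with ursolic acid. All 6 ursolic acid mice were above the control mean and 1 was above every control. The change was 0.15 with a standard error of 0.0882 (limma, unadjusted p = 0.106, adjusted p = 0.658), and it became 0.23 without control mouse 5, the highest control (unadjusted p = 0.0113). With tomatidine Jph1 changed by 0.02. Jph2 (chr2:163336242-163398049), the cardiac form that skeletal muscle also makes, was close to the dim boundary. Its probe ILMN_2628876 changed by -0.09 and -0.05, and ILMN_2628875 by 0.01 and 0.00. Those 2 Jph2 probes varied together with r = 0.63 and rho = 0.65 (within-diet permutation, adjusted p = 0.122 and 0.0567), and r was 0.58 without tomatidine mouse 4 and control mouse 2.

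Trdn (chr10:33083483-33476709) was dim in every mouse, from 7.944 to 7.998, close to the lowest signals on the arrays, where a change in its mRNA could hardly be read. Its changes were 0.00 and -0.01.

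Fkbp1a (chr2:151542483-151561691), which encodes FKBP12, did not pass either. Control mice read 11.01, 10.99, 10.93, 10.96 and 11.26, tomatidine mice 11.01, 10.98, 11.06, 11.20 and 11.03, and ursolic acid mice ran from 10.97 through 11.10 to 11.15. The groups overlapped, with control mouse 5 and tomatidine mouse 4 highest of all, and the changes were 0.05 and 0.03. Without control mouse 5 the ursolic acid change was 0.11 (unadjusted p = 0.0177).

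Control mouse 5 and tomatidine mouse 4 also had low signals of slow-fiber genes. The mean over 10 slow-fiber genes was 9.63, 9.84 and 9.85 in control mouse 1, control mouse 5 and tomatidine mouse 4, and from 10.39 to 11.05 in the other 13 mice. By diet it was 10.32 ± 0.543 (SD, n = 5) on control, 10.72 ± 0.223 (SD, n = 6) on ursolic acid and 10.46 ± 0.368 (SD, n = 5) on tomatidine, while the mean of 12 fast-fiber genes was 14.01, 13.97 and 13.99. Relations with the slow-fiber mean were computed for 11 member probes after subtraction of diet means, first over all 16 mice and then, because those 3 mice stood apart, over the other 13, both chosen after values had been seen. Over 16 mice Fkbp1a had r = -0.71 and rho = -0.79 (within-diet permutation, p = 0.00959 and 0.00119, adjusted p = 0.0604 and 0.0131), and r was -0.82 without control mouse 1 and tomatidine mouse 4. Over the 13 mice it had r = -0.56 and rho = -0.46 (permutation, p = 0.107 and 0.165, adjusted p = 0.879 and 0.649), and r was -0.27 without ursolic acid mouse 1 and tomatidine mouse 5. The coefficient kept its sign, and the call was made only with the 3 mice included. Ryr1 ILMN_2733073 had r = 0.66 and rho = 0.58 over 16 mice (permutation, adjusted p = 0.0604 and 0.108), with r = 0.49 without control mouse 1 and tomatidine mouse 4, and r = 0.43 and rho = 0.40 over the 13 (permutation, adjusted p = 0.879 and 0.649). Cacnb1 ILMN_2674213 had r = 0.51 and rho = 0.56 over 16 mice (permutation, adjusted p = 0.109 and 0.0886), with r = 0.37 without the same 2 mice, and r = 0.27 and rho = 0.25 over the 13 (permutation, adjusted p = 0.879 and 0.649). The other 8 probes had adjusted p over 0.1 in both runs, and over the 13 mice 0 of 11 reached it.

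Holding the slow-fiber mean constant in the limma fit changed which members passed with ursolic acid. The count moved from 3 to 5 of 14, while the share of all probes passing moved from 5.30% to 6.57%, with Ryr1 ILMN_2842357 at -0.30 (unadjusted p = 0.00233) and Fkbp1a at 0.12 (unadjusted p = 0.0165) joining. In that fit Ryr1 ILMN_2733073 changed by -0.19 with ursolic acid and -0.17 with tomatidine, at adjusted p of 0.052 and 0.0545. Calls at an adjusted p of 0.1 over all probes also moved in that fit, from 2 to 98 with ursolic acid and from 25 to 97 with tomatidine. The fits with the covariate were the only ones in which a member probe reached an adjusted p of 0.1, and over the alternatives the adjusted p of ILMN_2733073 ran from 0.052 to 0.455 and from 0.0545 to 0.722. The covariate fit used all 16 mice, including the 3 with low slow-fiber means, and was not run without them. Over 16 mice Ryr1 ILMN_2842357 had r = 0.65 and rho = 0.59 with the slow-fiber mean (permutation, adjusted p = 0.12 and 0.166). Over the other 13 mice it had r = -0.02 and rho = -0.18 (permutation, adjusted p = 0.954 and 0.677). The part of fiber composition in these results was not tested.

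**Figure D4:**
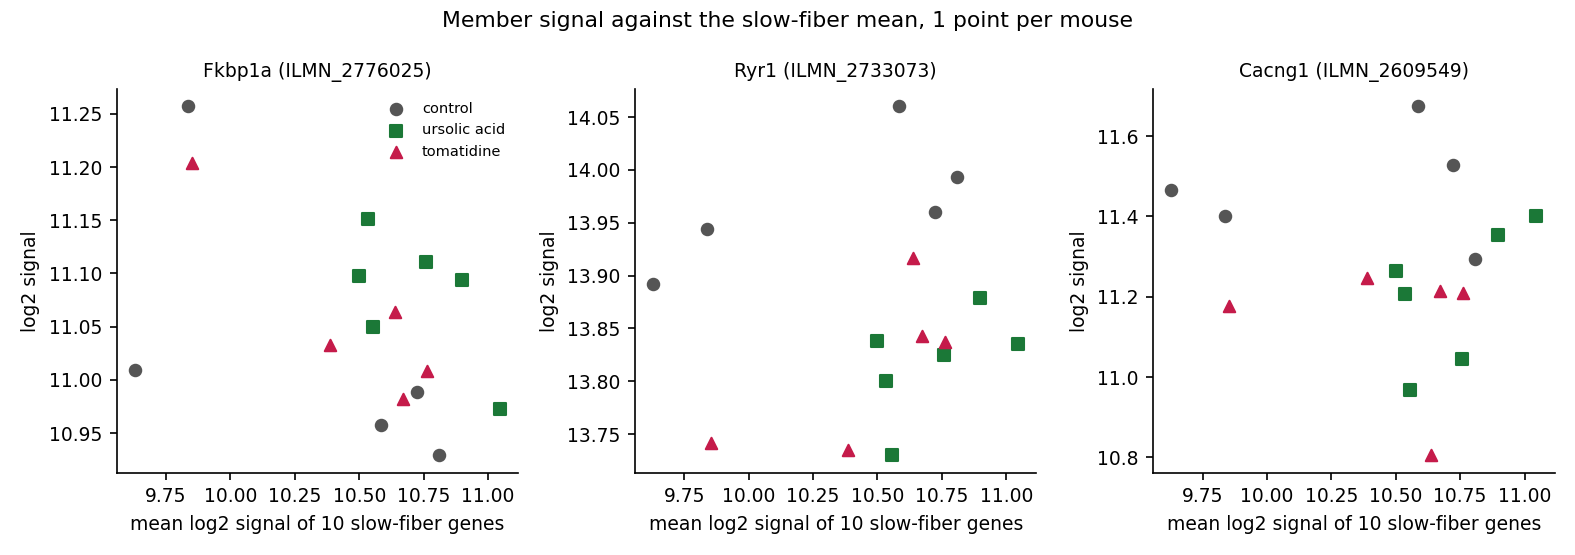
Log2 signal of Fkbp1a, Ryr1 (ILMN_2733073) and Cacng1 against the mean log2 signal of 10 slow-fiber genes, 1 point per mouse, shape and color by diet. Control mice 1 and 5 and tomatidine mouse 4 lie left of the other 13 mice, and vertical axes do not start at 0.

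Variation shared among members from mouse to mouse did not pass the test. Of 28 pairs among the brightest probes of 8 genes, after subtraction of diet means, 0 reached an adjusted p of 0.1 with Pearson's r or with Spearman's rho, by permutation within diets. At an unadjusted p under 0.05, 3 pairs did by r. Stac3 with Fkbp1a gave r = -0.54 and rho = -0.57 (permutation, adjusted p = 0.434 and 0.274), and r was -0.64 without ursolic acid mice 2 and 6. Cacnb1 with Fkbp1a gave r = -0.52 and rho = -0.635 (permutation, adjusted p = 0.434 and 0.227). Cacnb1 with Ryr1 gave r = 0.45 and rho = 0.59 (permutation, adjusted p = 0.434 and 0.227). Without tomatidine mouse 1 and ursolic acid mouse 3 their r were -0.625 and 0.37. Cacng1 and Stac3, which both fell with tomatidine, had r = 0.14 within diets (permutation, adjusted p = 0.865). As a description over 16 mice, the genes whose within-diet pattern was closest to that of Cacng1, out of 4497 genes with a probe above 8.5, were Col7a1 (r = 0.88), Smarce1 (0.86), Stab2 (0.85), Atrip (0.85) and Lrba (0.84). The closest member to Cacng1 was Jph2, at r = 0.41 and rank 659. For Ryr1 the closest were Mrpl16 (0.79), Plekhm1 (0.78), 1110038F14Rik (0.78), Yaf2 (0.76) and Tspan8 (0.74), and the closest member was Cacnb1 at r = 0.45 and rank 303.

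Genes related to the members by sequence were nearly all dim. Of 23 listed paralogues (other calcium channel subunits, STAC proteins, ryanodine receptors, junctophilins and FKBP12.6), 20 were measured and 1 was above 8.5. That gene, Cacng6, a second gamma subunit found in skeletal muscle, had a mean of 8.61 and fell by 0.12 with ursolic acid, with a standard error of 0.0345 (limma, unadjusted p = 0.00456, adjusted p = 0.327), and changed by -0.08 with tomatidine (unadjusted p = 0.0359, adjusted p = 0.505). No other paralogue passed in either comparison, but all the others were dim. Over all probes 2.58% rose and 2.72% fell with ursolic acid, and 2.25% rose and 3.12% fell with tomatidine.

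Of 27 other genes of the triad and T-tubule, 22 were measured and 20 were above 8.5. By the brightest probe, 1 rose and 3 fell with ursolic acid, and 0 rose and 2 fell with tomatidine, with median changes of -0.05 and -0.04. Of all probes with a mean of 8.5 or more, 6.05% rose and 6.15% fell with ursolic acid, and 5.38% rose and 7.67% fell with tomatidine. With all probes of a gene averaged, 2 rose and 3 fell with ursolic acid, and 0 rose and 2 fell with tomatidine. The medians were then -0.01 and -0.03. Cav3, the caveolin of muscle membranes and T-tubules, fell by 0.19 with ursolic acid (limma adjusted p = 0.232). Tmem38a, the TRIC-A counter-ion channel of the sarcoplasmic reticulum, fell by 0.12 with ursolic acid (limma adjusted p = 0.433). It was named to complete the count by the brightest probe after its values were seen. Calm3, a calmodulin gene whose protein binds the ryanodine receptor, fell by 0.16 with ursolic acid and by 0.18 with tomatidine (adjusted p = 0.403 and 0.353). Jsrp1, which encodes the junctional protein JP-45 that binds the voltage sensor, fell by 0.18 with tomatidine (adjusted p = 0.369). S100a1, whose protein enhances opening of the ryanodine receptor, rose by 0.20 with ursolic acid (adjusted p = 0.3). Among 8 measured genes of calcium pumps and buffers of the sarcoplasmic reticulum, 1 rose with ursolic acid and 0 passed with tomatidine. It was Atp2a2, the slow-fiber calcium pump, at 0.58 with a standard error of 0.212 (limma, unadjusted p = 0.0152, adjusted p = 0.414), a gene that also belongs to the slow-fiber list. With both compounds, none of these other triad or calcium store genes reached an adjusted p of 0.1.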

How the data were processed

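RNA was extracted from the quadriceps with TRIzol and RNeasy columns, and the arrays were read on an iScan. BeadStudio was used by the authors, who deposited log2 values that lay on a common scale over the arrays. Its version, the background correction and normalization, and slides or scan dates were not given in the sources used here. The deposited values were used unchanged. Of 25697 probes, 23978 had 1 gene symbol and 1719 had none.

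The model (lmFit and eBayes of limma 3.58.1, R 4.3.3) held 1 mean per diet and had 13 residual degrees of freedom, and p-values were adjusted by Benjamini-Hochberg over all probes. The thresholds, an unadjusted p of 0.025 and an adjusted p of 0.1, follow the study's methods. Lists and mouse-to-mouse comparisons used the brightest probe of each gene. Correlations were taken after subtraction of diet means, with 100000 permutations within diets. The members and the 15 lists beside them were chosen with earlier results of these data known. Every member was named with every probe, and in each list described up to 4 genes with the smallest p. Promoter windows and coordinates are RefSeq's for GRCm38.p6. The fit was tested on simulated data. Alternatives were 2 t-tests, fits of 2 groups, centering, quantile normalization, trend and robust estimates, array weights, a filter on dim probes, mouse number as a block, the slow-fiber covariate and omission of mice. The number of arrays limits the precision.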

Additional observations from a re-analysis of the deposited data

Results flagged for a closer look

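Among 42 groups of mice, 1 for each member probe and diet, 4 held a mouse far from the others by Dixon's test, which marks about 5% of groups by chance. Cacng1 in tomatidine mouse 3 was 10.805, and the next lowest of the 5 tomatidine mice was 11.176. Without that mouse the tomatidine change of Cacng1 was -0.26 (limma, unadjusted p = 0.00923, adjusted p = 0.433, with adjusted p from 0.11 to 0.722 over all alternatives). Fkbp1a in control mouse 5 was 11.257, with the next control mouse at 11.009. Ryr1 probe ILMN_2730425 in ursolic acid mouse 3 was 14.327, with the next at 14.225. Trdn in ursolic acid mouse 5 was 7.944, with the next at 7.978, both near the lowest signals on the arrays.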

How the results depend on the processing

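The falls of Cacnb1 and Ryr1 ILMN_2733073 with ursolic acid, and of Cacng1, Stac3 and Ryr1 ILMN_2733073 with tomatidine, passed in all 27 alternatives run for each. Some of these left out only mice of the other compound, which changes the shared spread but not the difference. The largest unadjusted p over the alternatives (limma or t-test) was 0.0239 for Cacnb1 with ursolic acid. With tomatidine it was 0.025, at the threshold, for Stac3 and 0.0234 for Cacng1. The ursolic acid count of 3 moved to 5 with the slow-fiber covariate and ran from 2 to 6 when each mouse was left out in turn, with 6 without control mouse 5. Over those omissions the share of all probes passing ran from 4.34% to 6.09%, the latter also without control mouse 5. The tomatidine count ran from 3 to 4 and that between compounds from 0 to 0. The shares of all probes ran from 4.24% to 6.84% and from 2.42% to 4.2%. Without tomatidine mice 3 and 4 the tomatidine count was 3, where 3.83% of all probes passed. The labels do not say whether mouse numbers pair the mice. Deviations of 15 same-numbered pairs correlated with r from -0.24 to 0.32, and 4 of these pairs had r over 0.1. The median r was -0.0829 for same-numbered pairs and 0.0054 for other pairs, which cannot exclude a shared cage or batch. With mouse number as a replicate block 4 members passed with ursolic acid, Stac3 joining at -0.13, 3 with tomatidine and 0 between compounds. Of all probes, 4.53%, 5.4% and 2.95% passed in that fit. Over all probes and settings that kept every mouse, calls at an adjusted p of 0.1 ran from 0 with the t-tests to 98 with ursolic acid (slow-fiber covariate) and 102 with tomatidine (dim probes left out), and from 0 to 3 between compounds.

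Changes that turned sign were small in the first place, and their cause was not tested. Under the block, Ryr1 ILMN_1220181 was 0.0083 and Jph2 ILMN_2628875 was -0.0067 with ursolic acid, and the latter was -0.0040 between compounds. Jph2 ILMN_2628875 with tomatidine was 0.0007 after quantile normalization and 0.0005 with the covariate. Without tomatidine mice 3 and 4, Ryr1 ILMN_1220181 was 0.084 and Fkbp1a -0.0205 with tomatidine, and between compounds Cacng1 was -0.0172, Cacna2d1 0.0092 and Ryr1 ILMN_1220181 -0.094. With the covariate, Ryr1 ILMN_2733073 was -0.0239 and ILMN_1220181 -0.0061 between compounds. With 1 mouse left out, ursolic acid changes ran from -0.055 to 0.0392 for Ryr1 ILMN_1220181, -0.0123 to 0.0445 for Jph2 ILMN_2628875 and -0.0079 to 0.0043 for Trdn. Tomatidine changes ran from -0.0026 to 0.0113 for Cacnb1 ILMN_2603539, -0.0412 to 0.0117 for Ryr1 ILMN_2730425, -0.0997 to 0.0253 for Ryr1 ILMN_1220181, -0.0424 to 0.0988 for Jph1, -0.0219 to 0.0144 for Jph2 ILMN_2628875 and -0.0066 to 0.087 for Fkbp1a. Between compounds they ran from -0.0053 to 0.1237 for Cacng1, -0.0169 to 0.0285 for Ryr1 ILMN_2733073, -0.0353 to 0.0898 for Ryr1 ILMN_1220181 and -0.0096 to 0.0471 for Jph2 ILMN_2628875.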

Other observations

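Marker genes of other cells in whole muscle were read beside the members, by the brightest probe of each gene. Over all probes 2.58% rose and 2.72% fell with ursolic acid, and 2.25% rose and 3.12% fell with tomatidine, and among probes with a mean of 8.5 or more 6.05% and 6.15%, and 5.38% and 7.67%. With lists this short, 1 gene is already a larger share than these, and the counts are given as descriptions. Endothelial markers had 2 of 7 measured genes that rose with ursolic acid and 0 with tomatidine, and adipocyte markers had 1 of 9 and 3 of 9. Smooth muscle and pericyte markers had 1 of 5 and 0 of 5, and fibroblast (6), macrophage (6), Schwann cell and nerve (3), satellite cell (4) and red blood cell (3) markers had 0 with either compound. Among 12 fast-fiber genes 3 fell with ursolic acid and 0 with tomatidine, among 10 slow-fiber genes 1 rose with each, and among 11 measured denervation-responsive genes 1 rose with each. Mean signals of endothelial markers ran from 9.27 to 9.52 in control mice, 9.35 to 9.65 in ursolic acid mice and 9.33 to 9.60 in tomatidine mice. The part of cell composition in the falls of Cacng1, Stac3, Cacnb1 and Ryr1 was not tested.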
